A study of Mus musculus with 32 samples.

Results

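Transcripts of enzymes that cut or crosslink the extracellular matrix, and of protease inhibitors, were measured in mouse kidney cortex. The mice had Alport syndrome or were controls, with and without nicotinamide riboside (NR). The set held 10 of the 32544 genes of the count table, taken by symbol: the matrix metalloproteinases *Mmp2*, *Mmp7* and *Mmp14*, the protease *Adamts1*, the tissue inhibitors of metalloproteinases *Timp1*, *Timp2* and *Timp3*, and the lysyl oxidases *Lox*, *Loxl1* and *Loxl2*. Matrix metalloproteinases are zinc enzymes that cut collagens and other matrix proteins, ADAMTS proteases cut proteoglycans among other substrates, and TIMPs bind the active site of metalloproteinases and block it. Lysyl oxidases oxidize lysines of collagen and elastin, the step that starts the formation of stable crosslinks. In kidney, these genes are known from the remodelling of basement membranes and of the interstitial matrix during fibrosis.

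Bulk poly(A) RNA-Seq had been performed on kidney cortex from 32 mice carrying the *Col4a3*tm1Dec allele on the C57BL/6J background, all at 25 weeks of age, with 4 mice in each of 8 groups. Alport mice were homozygous for the allele (*Col4a3*−/−), and controls were heterozygous (*Col4a3*+/−), so every control also carried 1 mutant copy. Vehicle-treated mice of both genotypes and sexes ate a purified control diet, and NR-treated mice ate this diet with NR, a precursor of NAD+, at 0.5% w/w from 10 weeks of age on. The groups were thus vehicle-treated and NR-treated male controls, male Alport mice, female controls and female Alport mice, and treatment groups had been balanced across litters. Libraries held 16621944 to 27778797 counts, with a median of 22071395. Levels are given as CPM, the counts of a gene for each 1000000 counts of the library, scaled by trimmed mean of M values factors, in the order of replicates 1 to 4 of a group. Differences are log2 fold changes (log2FC) ± SE with n = 4 mice per group. A gene rose or fell where its adjusted p was under 0.05.

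*Col4a3*, the targeted gene, was measured first to check the genotypes. In vehicle-treated male controls it was at 200.1, 197, 180.3 and 150.5 CPM, in NR-treated male controls at 58.97, 93.7, 74.9 and 160.3 CPM, in vehicle-treated Alport males at 56.7, 66.7, 54.6 and 83.7 CPM and in NR-treated Alport males at 67.7, 58.5, 55.9 and 62.4 CPM. In females the levels were 161, 140.4, 139.7 and 163 CPM in vehicle-treated controls, 113, 105, 123 and 122 CPM in NR-treated controls, 57.6, 79.3, 59.8 and 60.2 CPM in vehicle-treated and 49.03, 51.2, 57.2 and 58.9 CPM in NR-treated Alport mice. The mRNA was lower but present in Alport mice, and NR-treated male control replicates 1 and 3 lay inside the Alport range of 49.0 to 83.7 CPM. The ratio of *Col4a3* to its neighbour *Col4a4*, looked at after that overlap had been seen, was 0.293 to 0.413 in the 16 Alport mice and 0.537 to 0.822 in the 16 controls, with no overlap, so the labels were kept.

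The members differed widely in level when counts were set per kilobase of annotated exon. In vehicle-treated male controls *Timp3* stood at 219 CPM per kb, *Timp2* at 6.77, *Adamts1* at 5.29, *Loxl1* at 2.64, *Mmp14* at 1.27, *Loxl2* at 1.11, *Mmp2* at 0.627, *Lox* at 0.266 and *Timp1* at 0.166 CPM per kb, and *Mmp7* had 0 counts. In vehicle-treated Alport males *Timp3* was again highest at 152 CPM per kb, followed by *Timp2* at 35.7, *Adamts1* at 25.3 and *Timp1* at 21.5 CPM per kb. *Timp1* thus moved from rank 9 to rank 4 of the 10 genes in males, and it did so in females as well. The inhibitor transcripts *Timp3* and *Timp2* were the most abundant members per length in all 8 groups.

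The genes lie apart in the genome, in mm10 coordinates at chr8:92827291-92853420 for *Mmp2*, chr9:7692090-7699585 for *Mmp7*, chr14:54431612-54445364 for *Mmp14*, chr16:85793827-85803113 for *Adamts1*, chrX:20870166-20874735 for *Timp1*, chr11:118301069-118355740 for *Timp2*, chr10:86300372-86349506 for *Timp3*, chr18:52516067-52529867 for *Lox*, chr9:58287738-58313186 for *Loxl1* and chr14:69609068-69695834 for *Loxl2*. *Timp1* overlaps *Syn1* and *Timp3* overlaps *Syn3* on the opposite strand, and annotated antisense genes that have no line in the count table overlap *Mmp7*, *Lox* and *Loxl2*. *Timp2* overlaps *Cep295nl* on the same strand, which has no line either. Whether strand was used in counting was not given, so reads from such pairs cannot be told apart. *Syn1* was at 0.229 to 2.09 CPM and *Syn3* at 4.53 to 11.4 CPM over the 32 mice.

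The comparison of vehicle-treated Alport with vehicle-treated control mice asked how the matrix enzymes differed in established disease. In both sexes 7 of the 8 members with enough counts in controls to pass the low-count filter rose, and *Timp3* fell. Over all genes tested, 26.8% rose and 24.0% fell in males, and 23.9% rose and 21.8% fell in females. The 4 Alport mice lay above the 4 controls for these 7 members in both sexes, where this held for 22.3% of all genes tested in males and 20.7% in females, and below them for *Timp3*, which held for 27.9% and 23.6%. The median log2FC of these 8 members was 2.92 in males and 2.17 in females, beside medians of 0.00 over all genes tested. With *Mmp7* and *Timp1* included it was 3.25 in males and 2.36 in females. *Mmp7* and *Timp1* were called higher as well, but were below the filter among vehicle-treated controls and passed it only through the Alport mice, so that their difference was a condition of being tested, and the 4 Alport mice of each sex lay above the controls for both. In bulk cortex, fewer cells of a type and less RNA per cell cannot be told apart.

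Among the proteases, *Mmp2* encodes gelatinase A, which cuts denatured collagen and type IV collagen. It was at 1.91, 1.50, 2.90 and 2.14 CPM in vehicle-treated male controls and at 41.3, 39.2, 52.99 and 30.5 CPM in vehicle-treated Alport males. In females it was at 3.14, 1.96, 3.65 and 4.28 CPM in controls and at 44.96, 24.9, 47.4 and 37.4 CPM in Alport mice. Every Alport mouse was above every control of its sex, and the lowest Alport mouse of the 8 was female replicate 2. The difference was 20.6-fold in males (log2FC 4.36 ± 0.22) and 12.3-fold in females (3.62 ± 0.27), with adjusted p of 6.29e-08 and 2.90e-05 (edgeR quasi-likelihood test, Benjamini-Hochberg).

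*Mmp14* encodes a membrane-bound protease that cuts fibrillar collagen and activates pro-MMP2. Its level was 7.10, 6.81, 8.65 and 7.61 CPM in vehicle-treated male controls and 72.4, 76.6, 87.9 and 61.3 CPM in vehicle-treated Alport males. In females it was 8.94, 9.33, 15.98 and 12.2 CPM in controls and 78.3, 43.3, 74.6 and 63.5 CPM in Alport mice. The groups did not overlap, and male control replicates lay close together. *Mmp14* rose with a log2FC of 3.39 ± 0.12 in males and 2.52 ± 0.24 in females, with adjusted p of 1.70e-09 and 9.57e-05 (edgeR quasi-likelihood test, Benjamini-Hochberg).

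*Mmp7* encodes matrilysin, a small metalloproteinase made by epithelial cells. Vehicle-treated male controls had 0 counts in all 4 mice, and vehicle-treated Alport males had 96, 50, 90 and 99 counts, or 3.90, 2.04, 3.44 and 4.33 CPM. In females the counts were 2, 2, 19 and 4 in controls, or 0.0860, 0.0753, 0.746 and 0.182 CPM, and the levels 7.15, 3.25, 3.47 and 8.89 CPM in Alport mice. Expression was seen in Alport mice of both sexes and in female controls, where replicate 3 was the highest of 4, and was not detectable at this depth in vehicle-treated male controls. With a floor of 3 counts over the 4 controls, which covers counting error only, expression in males was at least 95.4-fold higher in Alport mice. In females the log2FC was 4.37 ± 0.62, and adjusted p was 2.83e-06 in males and 0.000455 in females (edgeR quasi-likelihood test, Benjamini-Hochberg). Without female control replicate 3 the female log2FC of *Mmp7* was 5.65, and without replicate 2 it was 4.03. The male median over all members was 3.25 with *Mmp7* set to this bound as well.

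*Adamts1* encodes a secreted protease that cuts the proteoglycans versican and aggrecan. It was at 34.6, 23.00, 26.8 and 27.9 CPM in vehicle-treated male controls and 122, 178, 122 and 114 CPM in Alport males, and at 27.6, 27.2, 36.7 and 27.3 CPM in female controls and 142, 101, 158 and 114 CPM in Alport females. Alport mice were again above all controls, and male Alport replicate 2 and female control replicate 3 stood apart from the rest of their groups. Its log2FC of 2.34 ± 0.16 in males and 2.15 ± 0.16 in females came with adjusted p of 1.03e-06 and 1.90e-05 (edgeR quasi-likelihood test, Benjamini-Hochberg).

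Among the inhibitors, *Timp1*, which is induced in many fibrotic tissues, had the widest difference of the members with counts in every mouse. It was at 0.212, 0.0428, 0.0492 and 0.285 CPM in vehicle-treated male controls, from 4, 1, 1 and 6 counts, and at 19.7, 23.8, 16.05 and 16.8 CPM in Alport males. In females it was at 0.258, 0.263, 0.982 and 0.319 CPM in controls and 24.5, 12.2, 18.3 and 18.4 CPM in Alport mice. All 8 Alport mice were above 12 CPM and all 8 controls below 1 CPM, with female control replicate 3 the highest control. The fitted difference of *Timp1* was 135-fold in males (log2FC 7.08 ± 0.31) and 40.3-fold in females (5.33 ± 0.38), with adjusted p of 5.23e-09 and 1.78e-05 (edgeR quasi-likelihood test, Benjamini-Hochberg). *Timp1* passed the low-count filter only through the Alport mice, and these folds rest on few counts in controls. With 1 mouse left out the log2FC of *Timp1* ran from 6.74 (without control replicate 2) to 7.63 (without control replicate 4) in males and from 5.12 (without control replicate 2) to 6.06 (without control replicate 3) in females.

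*Timp2*, which inhibits MMP2 and also takes part in its activation at the cell surface, was at 23.7, 25.8, 26.1 and 29.97 CPM in vehicle-treated male controls and 132, 116, 205 and 103 CPM in Alport males. Female controls had 34.9, 36.8, 51.7 and 41.7 CPM and Alport females 131, 98.8, 146 and 116 CPM. The groups did not overlap, and male Alport replicate 3 was the highest of its group. The log2FC was 2.48 ± 0.21 in males and 1.61 ± 0.15 in females, with adjusted p of 1.01e-05 and 5.46e-05 (edgeR quasi-likelihood test, Benjamini-Hochberg).

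*Timp3*, an inhibitor that is held in the matrix, went the other way. It was at 1862, 2016, 1777 and 1489 CPM in vehicle-treated male controls and 1206, 1276, 1143 and 1322 CPM in Alport males, and at 1509, 1498, 1553 and 1461 CPM in female controls and 939, 1128, 1116 and 1067 CPM in Alport females. Each control was above each Alport mouse of its sex, but the distance was small beside that of the other members. *Timp3* fell with a log2FC of −0.45 ± 0.12 in males and −0.46 ± 0.10 in females, with adjusted p of 0.00673 and 0.00299 (edgeR quasi-likelihood test, Benjamini-Hochberg).

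The transcripts of the crosslinking enzymes moved in 1 direction. *Lox*, the founding lysyl oxidase, was at 1.22, 1.20, 1.38 and 1.28 CPM in vehicle-treated male controls and 26.1, 24.8, 30.7 and 14.8 CPM in Alport males, and at 1.59, 2.52, 4.04 and 2.10 CPM in female controls and 28.5, 12.5, 17.6 and 15.96 CPM in Alport females. The male controls were the tightest and the lowest of these groups, and each Alport mouse was above the controls of its sex. *Lox* rose with a log2FC of 4.33 ± 0.23 in males and 2.89 ± 0.33 in females, with adjusted p of 4.12e-08 and 0.000181 (edgeR quasi-likelihood test, Benjamini-Hochberg). *Loxl1*, known for its part in elastic fibers, ranged from 5.95 to 10.8 CPM in male controls and 41.7 to 68.5 CPM in Alport males, and from 9.48 to 18.4 and 37.7 to 70.9 CPM in females. *Loxl2*, which acts on type IV collagen of basement membranes, ranged from 5.66 to 6.29 CPM in male controls and 34.6 to 62.0 CPM in Alport males, and from 6.89 to 12.4 and 37.2 to 53.7 CPM in females. Neither gene showed overlap between genotypes. In males *Loxl1* rose by 2.72 ± 0.20 and *Loxl2* by 3.12 ± 0.16, and in females by 1.86 ± 0.27 and 2.19 ± 0.19 on the log2 scale, with adjusted p of 2.26e-06, 4.96e-08, 0.000737 and 3.90e-05 (edgeR quasi-likelihood test, Benjamini-Hochberg).

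**Figure D1:**
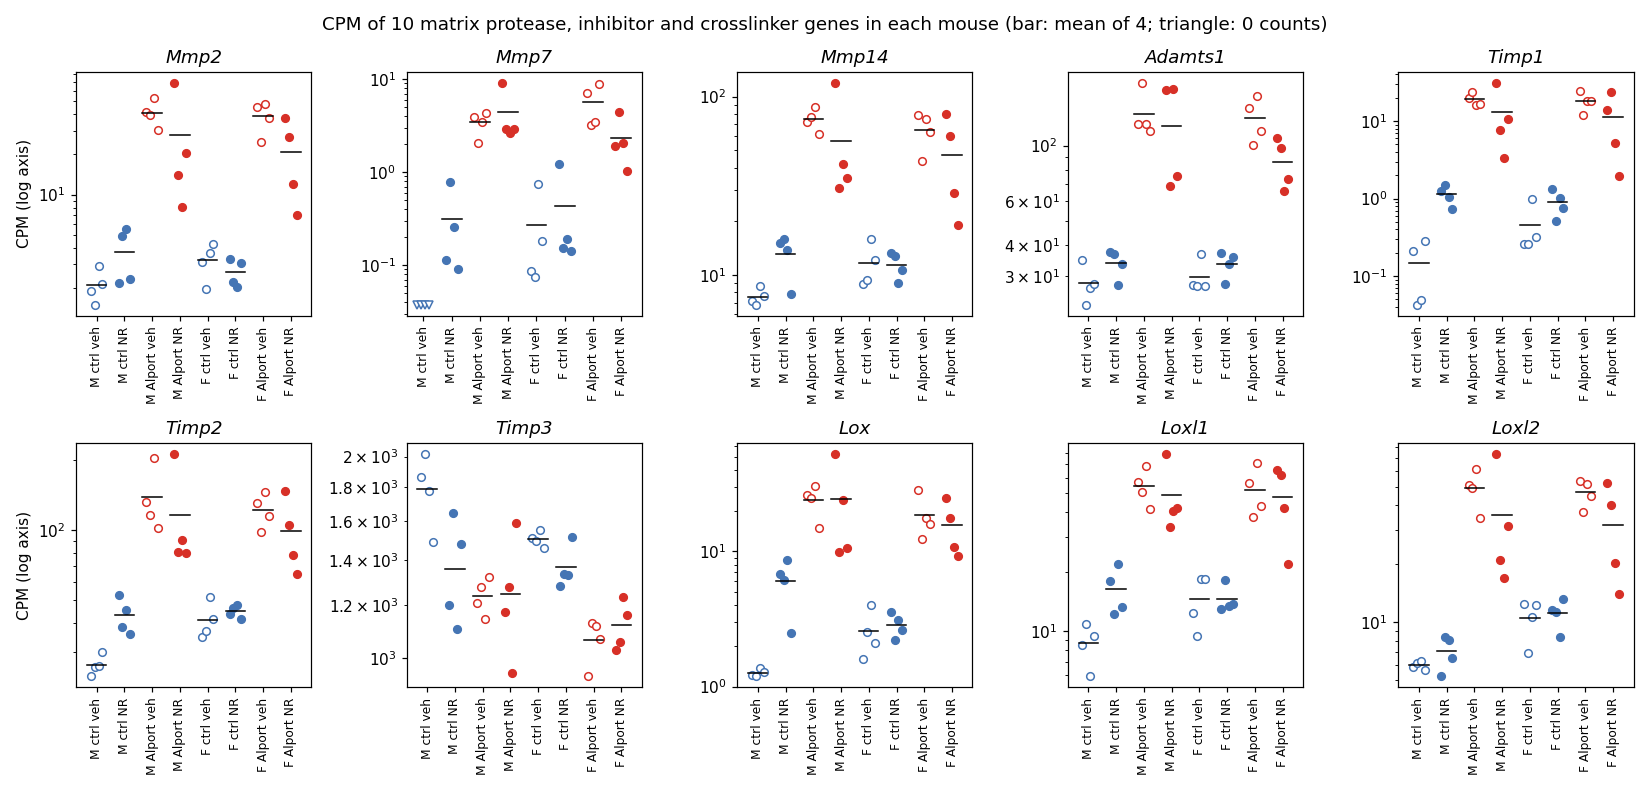
CPM of the 10 genes in each of the 32 mice, on log axes, with 1 point per mouse in the order of replicates (open, vehicle; filled, NR; blue, control; red, Alport), bars at the mean of 4 mice and triangles for 0 counts. Vehicle-treated Alport mice were above the controls of their sex for 9 genes and below them for *Timp3*, and male Alport NR replicate 1 was above the other 3 mice of its group for 8 genes.

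Over all 8 groups, the 4 Alport groups ranked above the 4 control groups by mean CPM for 8 genes (*Mmp2*, *Mmp14*, *Adamts1*, *Timp1*, *Timp2*, *Lox*, *Loxl1* and *Loxl2*), and the lowest Alport and the highest control group did not overlap. Neighbours within the Alport groups overlapped for each of these genes. For *Mmp7* the Alport groups ranked first as well, but NR-treated Alport females (mean 2.36 CPM) overlapped NR-treated female controls (mean 0.430 CPM). Vehicle-treated male controls ranked last for all members but *Timp3*, with no overlap with the next group for *Mmp7*, *Mmp14*, *Timp2*, *Lox* and *Loxl1*. For *Timp3* the controls ranked first, from 1786 CPM in vehicle-treated male controls to 1063 CPM in vehicle-treated Alport females, and each pair of neighbours overlapped.

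Markers of cell types moved with genotype beside these genes. Summed over 8 fibroblast and myofibroblast markers, levels were 87.6, 90.4, 80.1 and 90.8 CPM in vehicle-treated male controls and 502, 555, 734 and 449.6 CPM in Alport males, and 8 of 8 markers rose. In females the sums were 117, 113, 157 and 148 CPM in controls and 578, 379, 597 and 420.0 CPM in Alport mice, and 7 of 8 rose. *Col1a1* was the most abundant of these markers over the 32 mice, but not in vehicle-treated controls. There its mean was 8.23 CPM in males and 15.2 CPM in females, below *Pdgfrb* at 17.6 and 32.3 CPM. Summed over 7 macrophage markers, of which *Lyz2* was the most abundant over the 32 mice, levels were 64.1, 59.1, 82.8 and 78.2 CPM in male controls and 506, 473, 566 and 403 CPM in Alport males, and 79.5, 73.5, 132 and 87.04 CPM in female controls and 569, 318, 463 and 529.7 CPM in Alport females. All 7 macrophage markers rose in males and 6 of 7 in females, and the ranges of both sums were apart between genotypes. Of the 7 markers of injured tubules, all rose in both sexes, with sums of 628, 554, 737 and 579 CPM in male controls, 6358, 7720.2, 6368 and 6374 CPM in Alport males, 2017, 1484, 1819 and 1620.3 CPM in female controls and 12028, 7548, 10529 and 8046 CPM in Alport females, and *Spp1* as the most abundant over the 32 mice. The 7 proximal tubule markers fell in both sexes, and *Slc34a1*, the most abundant over the 32 mice, went from a mean of 7455 to 3340 CPM in males and from 5739 to 3045 CPM in females. The part of these cell types in the results was not tested.

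Other marker lists moved too. Podocyte sums were 364, 417, 372 and 351 CPM in vehicle-treated male controls and 771, 773, 1006 and 660.5 CPM in Alport males, and 545, 519.7, 556 and 555 CPM in female controls and 817, 848, 741 and 852 CPM in Alport females. They did not overlap between genotypes, 5 of 6 podocyte markers rose in each sex, and *Podxl* was the most abundant over the 32 mice. Lymphocyte sums were 4.24, 4.15, 2.70 and 4.42 CPM in male controls and 19.3, 7.73, 12.1 and 8.84 CPM in Alport males, and 4.77, 4.10, 7.89 and 5.06 CPM in female controls and 15.7, 8.79, 15.6 and 19.1 CPM in Alport females, where, of the 4 markers that also passed the low-count filter among vehicle-treated controls, 4 rose in males and 3 in females. Endothelial sums were 325, 365, 364 and 343 CPM in male controls and 487, 491, 558 and 455 CPM in Alport males, where 5 of 6 rose, and 375, 364, 464 and 472 CPM in female controls and 502, 516, 464 and 487 CPM in Alport females, which overlapped and where 4 of 6 rose. Among 6 distal nephron markers (loop of Henle, collecting duct), with *Umod* the most abundant over the 32 mice, 3 fell in each sex. No marker of the 8 lists was at 0 in all mice, and the part of these cells in the results for the 10 genes was not tested.

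Vehicle-treated male controls were lower than vehicle-treated female controls in several members. *Timp2* was at 23.7, 25.8, 26.1 and 29.97 CPM in males and 34.9, 36.8, 51.7 and 41.7 CPM in females, and *Loxl2* at 5.88, 6.17, 6.29 and 5.66 and 12.4, 6.89, 10.7 and 12.3 CPM. Among the members tested, the sexes did not overlap for *Mmp14*, *Timp2*, *Lox* and *Loxl2*, which were lower in all 4 males, as were 14.4% of all genes tested. *Mmp7*, with 0 counts in the males and 2, 2, 19 and 4 in the females, was below the low-count filter and was not tested. Of the 8 members that passed the low-count filter, 5 were lower in males, beside 15.7% of all genes tested, and the members' median log2FC was −0.66 beside −0.02 over all genes tested. These were *Mmp14* (−0.65 ± 0.18), *Timp2* (−0.67 ± 0.12), *Lox* (−1.04 ± 0.30), *Loxl1* (−0.77 ± 0.25) and *Loxl2* (−0.83 ± 0.17), with adjusted p of 0.0151, 0.00147, 0.0164, 0.0412 and 0.00229 (edgeR quasi-likelihood test, Benjamini-Hochberg). The fibroblast and injured tubule marker sums were lower in these males too, with 5 of 8 and 3 of 7 markers lower. Podocyte sums (364, 417, 372 and 351 CPM in males, 545, 519.7, 556 and 555 CPM in females) and distal nephron sums (5727, 5086, 6153 and 5341 CPM, 7644, 7474, 6402 and 7113 CPM) were lower in all 4 males, with 5 of 6 and 1 of 6 markers lower. Proximal tubule sums were higher in all 4 males, at 14944, 16124, 14937 and 14086 CPM beside 13877, 12354, 11994 and 12921 CPM in females, with 3 of 7 markers higher, and the part of all these cells was not tested.

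The calls between the sexes of controls depended on the fit. In the fit of all 32 mice 9 of 10 estimates were below 0, and only *Mmp7* passed, beside 2795 of 16469 genes. With the replicate number as a block 4 members passed, beside 4395 of 14990 genes, and *Loxl1* did not. Without the low-count filter 5 passed, beside 4508 of 22192 genes, with *Loxl1* lost and *Mmp7* added. DESeq2 called 6, beside 5059 of 15302 genes, the same 5 lower in males and *Timp3* higher. Without female replicate 3 the count was 3, as *Lox* and *Loxl1* no longer passed, *Loxl1* was lost also without female replicate 4 or male replicate 1, 3 or 4, and *Mmp2* passed without female replicate 2 or male replicate 3, as did *Timp3* in the other direction without male replicate 4.

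The sex-genotype interaction asked whether the Alport effect differed between vehicle-treated males and females. For *Mmp7* the fit in males rests on controls with 0 counts and gives no estimate of the difference. The estimates of the other 9 members, the log2FC of males minus that of females, were above 0, with a median of 0.90 beside 0.05 over all genes tested, but 0 of 10 members passed in edgeR, where 0.495% of all genes did. The unadjusted p was under 0.05 for 7 members, beside 1910 of 16152 genes, and DESeq2 called 3 members, beside 253 of 17256 genes, with *Mmp7* among them in both counts. The other 2 that DESeq2 called were *Lox* and *Loxl2*. *Timp1*, among the 9 estimates and the 7 members, was below the low-count filter among vehicle-treated controls and was tested through the Alport mice. The difference was 0.96 ± 0.26 for *Loxl2*, 1.47 ± 0.45 for *Lox*, 0.91 ± 0.27 for *Timp2* and 0.90 ± 0.28 for *Mmp14*, with adjusted p of 0.128, 0.181, 0.178 and 0.192 (edgeR quasi-likelihood test, Benjamini-Hochberg). Without female control replicate 2, *Loxl2* passed. Vehicle-treated Alport males and females overlapped for all members but *Timp3*, which was higher in the males, and the lower values of male controls enter this difference.

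NR treatment of control mice was compared with vehicle in each sex, to see what NR did without disease. In male controls *Timp1* went from 4, 1, 1 and 6 counts with vehicle to 22, 25, 20 and 16 counts with NR, or 1.26, 1.49, 1.04 and 0.734 CPM. *Lox* was at 1.22, 1.20, 1.38 and 1.28 CPM with vehicle and at 6.82, 6.15, 8.65 and 2.48 CPM with NR. *Timp2* was at 23.7, 25.8, 26.1 and 29.97 CPM with vehicle and 52.9, 38.6, 45.6 and 36.02 CPM with NR. In each of these 3 genes all 4 NR-treated males were above all 4 vehicle-treated ones, and for *Lox* replicate 4 was nearest to them. *Loxl1*, at 8.48, 10.8, 5.95 and 9.51 CPM with vehicle and 17.99, 12.2, 21.9 and 13.3 CPM with NR, did not overlap either. *Mmp7*, with 0 counts in the 4 vehicle-treated males, had 2, 13, 5 and 2 counts with NR, at least 8.65-fold higher against the floor of 3 counts over the group, and was below the low-count filter. Of these, *Timp2*, *Lox* and *Loxl1* passed the low-count filter among vehicle-treated controls, beside 7.37% of all genes tested that were higher in all NR-treated males.

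Of the 8 members with enough counts in vehicle-treated male controls to pass the filter, 3 rose with NR, beside 2.97% of all genes tested. They were *Timp2* (0.73 ± 0.13), *Lox* (2.26 ± 0.35) and *Loxl1* (0.92 ± 0.23), with adjusted p of 0.0174, 0.00934 and 0.0471 (edgeR quasi-likelihood test, Benjamini-Hochberg). *Timp1* was called as well (2.92 ± 0.53), with an adjusted p of 0.0174 (edgeR quasi-likelihood test, Benjamini-Hochberg), but passed the filter only through the NR-treated mice, where it was high. The median of the 9 members tested was 0.81 with *Timp1* among them, and so was not set against that of all genes. The estimates of the other members ran from −0.39 ± 0.14 for *Timp3* to 2.26 ± 0.35 for *Lox*. *Mmp14* missed the threshold with 0.81 ± 0.21 and an adjusted p of 0.0561 (edgeR quasi-likelihood test, Benjamini-Hochberg). *Lox* passed with any 1 mouse left out, while 1 to 5 members passed in all. *Timp1* was lost without vehicle replicate 1 or 2, *Timp2* without vehicle replicate 1 or 2 or NR replicate 3, and *Loxl1* without any of the 4 vehicle replicates or NR replicate 1 or 3, whereas *Mmp14* passed without NR replicate 4. In the fit of all 32 mice 1 member passed, which was *Lox*, beside 931 of 16469 genes. With the replicate number as a block *Lox* was again the only 1, beside 413 of 14696 genes. DESeq2 called 5 members, *Mmp14* among them, beside 1626 of 14729 genes. Without the low-count filter 6 passed, with *Mmp14* and *Mmp7* added, beside 685 of 21979 genes.

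Other genes differed in the NR-treated male controls at the same time. The sum of 7 injured tubule markers was 1915, 1307, 1659 and 794 CPM with NR and 628, 554, 737 and 579 CPM with vehicle, and 3 of the 7 rose. *Lcn2*, a defining marker of injured tubules, was at 25.7, 9.79, 7.72 and 1.28 CPM with NR and 1.11, 0.514, 0.885 and 0.523 CPM with vehicle. The 6 endothelial markers, of which *Plvap* was the most abundant over the 32 mice, all rose, with sums of 694, 504, 631 and 477 CPM with NR and 325, 365, 364 and 343 CPM with vehicle. Of the fibroblast and myofibroblast markers tested, 3 of 7 rose, with sums of 169.5, 137, 163 and 117 CPM with NR and 87.6, 90.4, 80.1 and 90.8 CPM with vehicle. Replicate 4 was the lowest NR-treated male in these 3 sums and in 5 of the 9 members other than *Timp3*, and its *Col4a3* was the highest of that group. Proximal tubule sums overlapped, at 9544, 13844, 10744 and 14117 CPM with NR and 14944, 16124, 14937 and 14086 CPM with vehicle, and 1 of 7 markers fell. The part of these cells in the rise of *Timp1*, *Timp2*, *Lox* and *Loxl1* was not tested.

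In female controls 0 of 9 members passed with NR in edgeR, where 6.39% of all genes tested did. The unadjusted p was under 0.05 for 0 members, beside 3341 of 14951 genes, and DESeq2 called 0 members, beside 1460 of 14003 genes. The median log2FC was 0.08 beside −0.01 over all genes tested, and ran from −0.08 (without vehicle replicate 2) to 0.17 (without vehicle replicate 3). This median includes *Timp1* (0.96 ± 0.48), which was below the low-count filter among vehicle-treated controls and was tested through the NR-treated mice. *Timp1* was at 0.258, 0.263, 0.982 and 0.319 CPM with vehicle and 1.33, 0.514, 1.01 and 0.764 CPM with NR, and *Lox* at 1.59, 2.52, 4.04 and 2.10 CPM and 3.55, 2.21, 3.09 and 2.63 CPM. The groups overlapped for all 10 members, while 14.4% of all genes tested had no overlap in 1 direction or the other. In NR-treated females, replicate 1 was the highest for 6 of the 9 members other than *Timp3*. Whether the response to NR differed between male and female controls was not tested.

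NR treatment of Alport mice was the comparison of treated with untreated disease. In males *Mmp2* was at 41.3, 39.2, 52.99 and 30.5 CPM with vehicle and 68.6, 13.95, 8.11 and 20.4 CPM with NR, and *Mmp14* at 72.4, 76.6, 87.9 and 61.3 CPM and 119, 30.7, 42.00 and 34.7 CPM. *Timp1* was at 19.7, 23.8, 16.05 and 16.8 CPM with vehicle and 31.1, 7.70, 3.37 and 10.7 CPM with NR. *Lox* was at 26.1, 24.8, 30.7 and 14.8 CPM and 52.5, 9.90, 24.1 and 10.7 CPM. NR-treated replicate 1 was the highest of its group for 8 of the 9 members other than *Timp3* and above all 4 vehicle-treated Alport males for these 8. The other NR-treated males were below all 4 vehicle-treated ones for 8 (replicate 2), 6 (replicate 3) and 7 (replicate 4) of the 9 members. The groups overlapped for all 10 members, where 3.43% of all genes tested did not overlap.

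In these males 0 of 10 members passed with NR in edgeR, with an unadjusted p under 0.05 for 0 members and 0 members called by DESeq2. Over all genes tested 0% passed in edgeR, with 777 at an unadjusted p under 0.05 and 68 called by DESeq2. The median log2FC was −0.22 beside 0.01 over all genes tested, with −0.58 ± 0.56 for *Mmp2*, −0.41 ± 0.40 for *Mmp14*, −0.54 ± 0.54 for *Timp1* and −0.48 ± 0.42 for *Loxl2*. With 1 mouse left out the median ran from −0.72 (without NR-treated replicate 1) to −0.089 (without NR-treated replicate 2). Without NR-treated replicate 1, 2 members passed, *Mmp2* with −1.55 and *Mmp14* with −1.07, beside 374 of 15662 genes. Adjusted p with 1 mouse left out ranged from 0.0450 to 0.9999 for *Mmp2* and from 0.0264 to 0.9999 for *Mmp14* (edgeR quasi-likelihood test, Benjamini-Hochberg). This mouse also differed in marker sums, where NR-treated Alport males had 881, 228, 341 and 335 CPM of fibroblast and myofibroblast markers, 768, 229, 147 and 293 CPM of macrophage markers and 10899, 3840.1, 4233 and 3159.8 CPM of injured tubule markers. Replicate 1 was the highest in each of these sums. The injured tubule sum was mostly *Spp1*, with a mean of 4909 CPM beside a mean sum of 5533 CPM. Of its defining markers, *Havcr1* was highest in replicate 3, at 119, 93.0, 176 and 63.0 CPM. *Lcn2* was high in replicates 1 and 3, at 137, 42.4, 128 and 36.0 CPM. Proximal tubule sums were 4047, 10808, 3201 and 10739 CPM with NR and 6819, 7158, 5073 and 8285 CPM with vehicle, so that replicates 1 and 3 were below and replicates 2 and 4 above all vehicle-treated Alport males. The part of these cells in the values of the members was not tested.

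In Alport females *Mmp2* was at 44.96, 24.9, 47.4 and 37.4 CPM with vehicle and 37.3, 27.1, 12.1 and 7.06 CPM with NR, and *Adamts1* at 142, 101, 158 and 114 CPM and 108, 97.5, 65.7 and 73.4 CPM. *Mmp7* was at 7.15, 3.25, 3.47 and 8.89 CPM with vehicle and 1.90, 4.44, 2.05 and 1.04 CPM with NR. *Timp1* was at 24.5, 12.2, 18.3 and 18.4 CPM and 13.9, 23.6, 5.15 and 1.97 CPM. NR-treated replicates 4 and 3 were below all 4 vehicle-treated females for 9 and 8 of the 9 members other than *Timp3*, replicate 2 was below them for *Adamts1* alone, and replicate 1 was below them for *Mmp7* and above them for *Mmp14* and *Timp2*. The groups overlapped for all 10 members, beside 9.10% of all genes tested without overlap. In edgeR 0 of 10 members passed, where 0.458% of all genes tested did, 2 members had an unadjusted p under 0.05, as had 2590 of 15712 genes, and DESeq2 called 0. Those 2 were *Mmp7* (−1.27 ± 0.47) and *Adamts1* (−0.57 ± 0.18), with adjusted p of 0.236 and 0.187 (edgeR quasi-likelihood test, Benjamini-Hochberg). The median was −0.52 beside 0.00 over all genes tested, and 9 of 10 estimates were below 0. Without NR replicate 4 the median was −0.26, and without NR replicate 1 it was −0.76.

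Marker sums of the NR-treated Alport females moved beside the members. They were 503, 511, 284 and 234 CPM for fibroblasts and myofibroblasts, 470.2, 341, 163 and 74.3 CPM for macrophages and 6928, 8320.0, 4865 and 2931 CPM for injured tubules, and replicate 4 was the lowest in each. With vehicle the injured tubule sums were 12028, 7548, 10529 and 8046 CPM, and the groups overlapped. Endothelial sums were 582, 571, 633 and 693 CPM with NR and 502, 516, 464 and 487 CPM with vehicle, with no overlap. The part of these cells in the values of the 10 genes was not tested.

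Alport mice were also compared with controls where both had received NR. These fits share no mouse with those of vehicle-treated mice, but each shares its groups with the NR comparisons above. In females 8 members other than *Mmp7* rose, beside 14.3% of all genes tested, and *Timp3* missed the threshold, where 13.2% of all genes fell. The median over the members other than *Mmp7* was that of *Loxl1*, 1.74 ± 0.32, beside 0.02 over all genes tested. With *Mmp7* included it was 1.90. The log2FC was 2.99 ± 0.53 for *Mmp2*, 3.64 ± 0.79 for *Timp1*, 2.47 ± 0.32 for *Lox* and 1.39 ± 0.16 for *Adamts1*, with adjusted p of 0.00514, 0.0113, 0.000692 and 0.000350 (edgeR quasi-likelihood test, Benjamini-Hochberg). Females did not overlap for 8 members that were higher in Alport mice (13.1% of all genes tested) and for *Timp3*, which was lower (17.6%), while *Mmp7* overlapped at 1.23, 0.154, 0.189 and 0.143 CPM in NR-treated controls. *Mmp7* was called too, but with 25, 3, 3 and 3 counts in NR-treated female controls it passed the filter only through the Alport mice, and its log2FC ran from 1.95 (without Alport replicate 2) to 3.85 (without control replicate 1). For *Loxl2* (1.53 ± 0.40) adjusted p was 0.0241 (edgeR quasi-likelihood test, Benjamini-Hochberg). With 1 mouse left out 7 to 10 members passed. *Mmp7* was lost without Alport replicate 2 or control replicate 2, 3 or 4, *Loxl2* without Alport replicate 2 or control replicate 1, 2 or 3, and *Timp3* passed without Alport replicate 3 and in DESeq2. Without the low-count filter 8 members were called, beside 3978 of 22434 genes, and *Loxl2* was lost. NR-treated female controls had 135, 132, 132 and 122 CPM of fibroblast and myofibroblast markers, below all NR-treated Alport females. Their injured tubule sums of 2348, 1996, 1415 and 1614 CPM were below as well, while macrophage sums of 96.8, 81.2, 96.1 and 78.3 CPM overlapped. The part of these cells was not tested.

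In males all 4 NR-treated Alport mice were above all 4 NR-treated controls for the members other than *Timp3* and *Mmp7*, where this held for 7.73% of all genes tested. They were above the controls for *Mmp7* too. *Loxl1*, for example, was at 17.99, 12.2, 21.9 and 13.3 CPM in controls and 78.8, 33.9, 40.6 and 41.9 CPM in Alport mice, and *Adamts1* at 37.4, 36.8, 27.6 and 33.4 CPM and 168, 68.8, 168 and 75.6 CPM. *Mmp7* was again below the filter among the controls and was tested through the Alport mice. Despite the separation, 0 of 10 members passed in edgeR, with an unadjusted p under 0.05 for 9 members and 9 called by DESeq2, *Mmp7* among them in both counts. Of all genes tested 0% passed in edgeR, with 3208 at an unadjusted p under 0.05 and 1361 called by DESeq2. The median log2FC over the members other than *Mmp7* was that of *Lox*, 2.03 ± 0.57, beside 0.01 over all genes tested, and 2.08 with *Mmp7* included. The log2FC was 3.57 ± 0.65 for *Timp1*, 2.91 ± 0.66 for *Mmp2*, 1.85 ± 0.31 for *Adamts1* and 1.59 ± 0.29 for *Loxl1*. Adjusted p was 0.0740 for *Timp1*, 0.0810 for *Mmp2* and 0.105 for *Lox*, which was the highest of the 9 (edgeR quasi-likelihood test, Benjamini-Hochberg). In the fit of all 32 mice 9 members passed, beside 4554 of 16469 genes. With the replicate number as a block 7 passed, beside 351 of 14884 genes, and *Mmp7* was in both counts. Without Alport replicate 1, *Mmp14*, *Timp1*, *Timp2*, *Loxl1* and *Loxl2* passed, beside 87 of 14965 genes. The estimates were smaller there, with a median of 1.55 over all 10 members and with 1.93 for *Mmp2* and 2.70 for *Timp1*. That the threshold was passed in females and not in males was not tested as a difference. In males the fibroblast, injured tubule and macrophage sums of all NR-treated Alport mice were above those of all NR-treated controls. The part of these cells was not tested.

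The NR-genotype interaction, the NR effect in Alport mice minus that in controls, equals the difference of the Alport effect with NR and with vehicle. In males *Mmp7* has no estimate, since its fit rests on the vehicle-treated controls with 0 counts. Over the other 9 members the median was −1.11 beside 0.01 over all genes tested, and 8 of 9 estimates were below 0, while 0 of 10 members passed in edgeR. The unadjusted p was under 0.05 for 6 members, *Mmp7* among them, and DESeq2 called 1 (*Timp1*), while 0% of all genes passed in edgeR, 1395 had an unadjusted p under 0.05 and DESeq2 called 19. *Timp1* is among these 6 and the 9, but had 1 to 6 counts in vehicle-treated male controls. It was below the low-count filter among vehicle-treated controls and was tested through the other groups. The estimates were −3.48 ± 0.95 for *Timp1*, −2.28 ± 0.69 for *Lox*, −1.11 ± 0.37 for *Loxl1* and −1.02 ± 0.40 for *Timp2*, with adjusted p of 0.413, 0.434, 0.450 and 0.521 (edgeR quasi-likelihood test, Benjamini-Hochberg). Without male Alport NR replicate 1 the median of the 9 was −1.47, and *Mmp2*, *Mmp14*, *Timp1*, *Timp2*, *Lox*, *Loxl1* and *Loxl2* passed, as did *Mmp7* with the same limit. Over all genes 784 of 15942 passed there. In females the median was −0.55 beside 0.00, with a range from −0.86 (without Alport NR replicate 1) to −0.29 (without Alport NR replicate 4), 0 of 10 members passed in edgeR, 1 had an unadjusted p under 0.05 (*Adamts1*, −0.77 ± 0.24), and DESeq2 called 0 members. Over all genes in females 0% passed in edgeR, 1484 had an unadjusted p under 0.05 and DESeq2 called 29. The female median includes *Mmp7* and *Timp1*, both below the low-count filter among vehicle-treated controls.

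**Figure D2:**
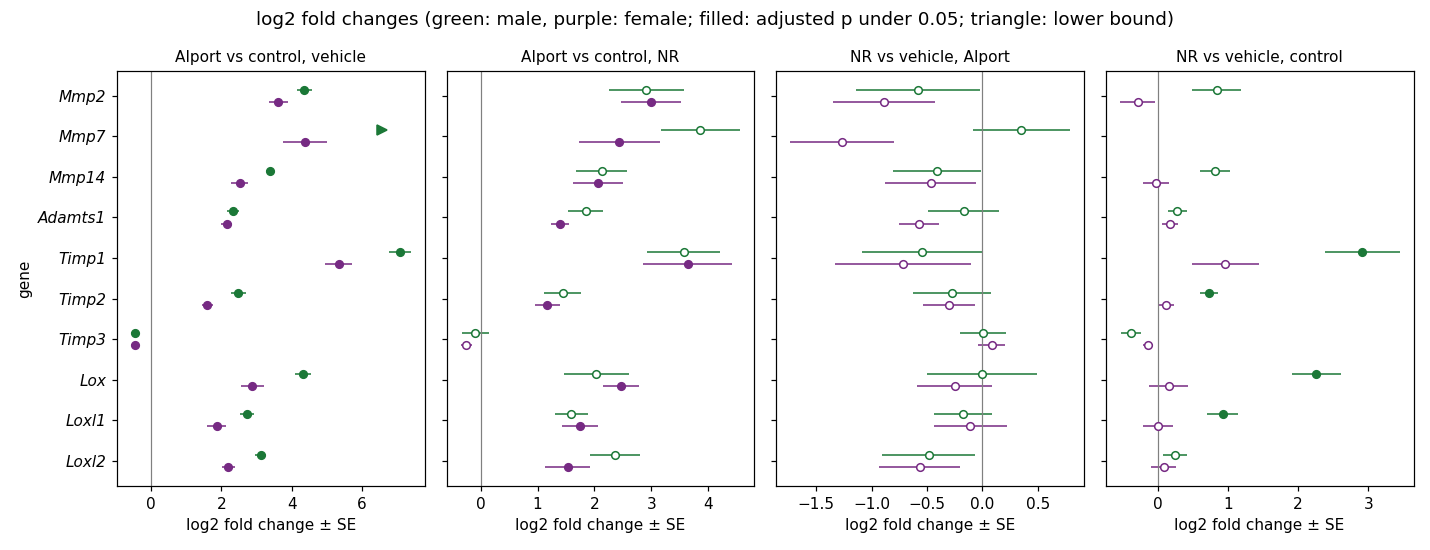
log2FC ± SE of the 10 genes in 4 comparisons, with males in green, females in purple, filled points for an adjusted p under 0.05 and a triangle for the lower bound of *Mmp7* in males. With vehicle 9 genes were higher in Alport mice of both sexes, and the NR effect in Alport mice was not called for any gene in either sex.

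Genes around the 10 members were taken from lists of related enzymes and substrates, whose counts stand beside 26.8% of all genes tested that rose in males and 23.9% in females. Among vehicle-treated controls of both sexes together, 10 other matrix metalloproteinases also passed the low-count filter. Of these, 8 rose in vehicle-treated Alport males and 7 in females, with medians of 1.60 and 1.48, and 0 fell. *Mmp24* (4.61 ± 0.72 in males, 2.89 ± 0.57 in females), *Mmp3* (3.34 ± 0.80, 2.42 ± 0.57) and *Mmp9* (2.05 ± 0.32, 2.32 ± 0.58) had low levels, with means of 1.51, 4.64 and 1.60 CPM in Alport males. *Mmp24*, *Mmp9* and *Mmp25* were below the filter among vehicle-treated controls and were tested only through the Alport mice. *Mmp3* is in these counts, but was at 0 to 1.38 CPM in male and 0.151 to 1.37 CPM in female vehicle-treated controls. Within a sex it too was tested only through the Alport mice. All 6 tested genes for other lysyl oxidases and collagen crosslinking enzymes rose in both sexes, with medians of 0.92 and 0.79. These included *Loxl3* (2.17 ± 0.16, 1.44 ± 0.27) and the lysyl hydroxylase *Plod2* (1.22 ± 0.09, 1.68 ± 0.11). Of other inhibitors, *Reck* rose in both sexes (1.29 ± 0.20, 0.68 ± 0.11). In the ADAMTS family, of 11 genes that passed the filter among these controls, 7 rose in males and 6 in females, among them *Adamts4* (3.52 ± 0.39, 3.22 ± 0.37). *Adamts4* was at 0.257 to 0.666 CPM in male and 0.263 to 0.731 CPM in female vehicle-treated controls, and has the same limit as *Mmp3*. Of 8 ADAM genes 7 rose and 1 fell in both sexes, with *Adam8* (3.36 ± 0.28, 3.19 ± 0.51) the largest.

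In the plasminogen system *Serpine2*, the gene of protease nexin 1, rose in both sexes (2.82 ± 0.13 in males, 1.92 ± 0.19 in females), and *Serpinf2*, the gene of α2-antiplasmin, fell (−0.99 ± 0.22, −0.71 ± 0.21). Of cathepsins and cystatin C 5 of 6 rose in both sexes, *Ctss* with 3.75 ± 0.15 and 2.999 ± 0.43. The astacins and procollagen processing genes had 3 of 6 that rose and 1 that fell in males, and 2 and 0 of 6 in females, with *Bmp1* at 2.13 ± 0.21 and 1.05 ± 0.15. Among the substrates, 9 of 9 collagen, elastin and fibronectin genes rose in males (median 3.28) and 8 of 9 in females (median 2.09), and *Col1a1* had the largest values (5.05 ± 0.19, 3.97 ± 0.35). With NR in male controls, where 2.97% of all genes tested rose and 217 of 14696 fell, 1 of 10 tested other matrix metalloproteinases rose, as did *Reck* (0.76 ± 0.14), the only other inhibitor tested, 1 of 6 cathepsins and cystatin C (*Ctss*, 1.27 ± 0.21) and 1 of 9 substrates (*Col1a2*, 0.74 ± 0.14), and of 6 crosslinking enzymes 1 fell (*Plod2*, −0.56 ± 0.12) and none rose. No ADAMTS, ADAM or astacin gene was called there. With NR in Alport mice, the medians of the substrates were −0.51 in males and −0.51 in females. The NR-treated mice differed widely, with *Col1a1* at 35.9 to 444 CPM in males, beside 217 to 310 CPM with vehicle. In females it was at 30.3 to 205 CPM with NR and 155 to 299 CPM with vehicle.

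Each member's level was also compared with those of 16371 genes over the 32 mice, by the root mean square difference of log2 CPM after centring. *Mmp14* was closest to *Fbn1* (0.184), *Timp2* to *Fstl1* (0.167), *Loxl1* to *Axl* (0.198) and *Adamts1* to *Tubb2b* (0.261). *Loxl2* was closest to *Col6a2* (0.293), *Mmp2* to *Cd44* (0.402) and then *Col1a2* (0.404), and *Lox* to *Socs3* (0.422). *Timp1* and *Mmp7* had the largest distances, 0.680 to *Serpina10* and 0.693 to *Serpina3n*. *Timp3* was closest to *Inadl* (0.110). Among the members themselves, *Timp2* and *Loxl1* were the nearest pair (0.296), *Mmp14* was nearest to *Loxl2* (0.383), and *Timp1* was nearest to *Mmp7* (0.794).

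Promoter sequence was available from RefSeq (GRCm38.p6) for 6 of the 10 members, *Mmp7*, *Mmp14*, *Adamts1*, *Timp1*, *Timp2* and *Timp3*, and not analysed here for *Mmp2*, *Lox*, *Loxl1* and *Loxl2*. The 250 bases before the start of each RefSeq entry were searched on both strands for TGANTCA, the motif of AP-1, and for AGGAAG, a core of ETS motifs, both long discussed for metalloproteinase promoters. These starts need not be the gene ends given above: the window of *Timp2* lies inside the annotated gene, that of *Timp3* reaches past its annotated start and that of *Mmp14* ends before it. TGANTCA was found in 6.75% and AGGAAG in 29.5% of 32851 promoters of this length. The sequences of *Mmp7* and *Timp1* are shown because these members had the widest differences between Alport and control mice. They lie on the plus strand at chr9:7691840-7692089 for *Mmp7* and chrX:20869916-20870165 for *Timp1*, are written 5′ to 3′, and have the matches in capitals, and of 2 entries for *Mmp7* the upstream one is shown.
Mmp7: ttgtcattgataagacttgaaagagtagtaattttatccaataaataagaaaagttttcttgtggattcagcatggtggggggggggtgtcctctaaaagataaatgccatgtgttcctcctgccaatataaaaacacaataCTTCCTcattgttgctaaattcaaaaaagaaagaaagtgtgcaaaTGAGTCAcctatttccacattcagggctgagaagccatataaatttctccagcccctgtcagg
Timp1: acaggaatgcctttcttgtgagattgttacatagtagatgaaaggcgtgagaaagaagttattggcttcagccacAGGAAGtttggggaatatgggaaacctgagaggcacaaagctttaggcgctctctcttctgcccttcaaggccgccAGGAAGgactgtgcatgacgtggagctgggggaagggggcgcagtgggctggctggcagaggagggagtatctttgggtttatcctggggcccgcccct
This *Mmp7* sequence held 1 TGANTCA match, at position −63 from the start of the entry, and 1 AGGAAG match on the opposite strand, at position −108. The other *Mmp7* entry, with its window at chr9:7692091-7692340 inside the annotated gene, held no TGANTCA match and 1 AGGAAG match, at position −142. *Timp1* held 2 AGGAAG matches, at positions −175 and −99, and no TGANTCA match. *Mmp14* and *Timp3* held 1 AGGAAG match each, at positions −209 and −204, and *Timp2* and *Adamts1* held neither motif. A match describes the letters of the sequence and not binding, and whether the matches relate to the changes in level was not tested.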

How the data were processed

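The deposited table of raw counts for 32544 genes in 32 mice was used; the authors' label "count" stands for whole reads per gene, and the deposited "log10" table equalled log10(CPM + 1) within 8.88e-16. Reads had been processed with BioJupies to build mm10; annotation and strand were not given in the sources used here. The 10 genes and the lists were chosen with earlier results of these data known. Counts were scaled by trimmed mean of M values, filtered with filterByExpr (minimum count 10) and tested in edgeR 4.0.16 (R 4.3.3, limma 3.58.1) by the quasi-likelihood F test, with 1 fit per comparison and Benjamini-Hochberg adjustment over all genes tested at 0.05. SE is the log2FC divided by the square root of F. Robust estimation was chosen after a run without it had been seen, and so after seeing the data. Alternatives were DESeq2 1.42.0, RLE factors, no low-count filter, 1 fit of all mice, a replicate block, no robust estimation and each mouse left out. Lengths and positions came from GENCODE vM21. Genes outside the 10 were named from the up to 4 per list with the largest log2FC past the threshold in the same direction in both sexes, other than markers, overlapping genes, nearest genes and *Col4a3* with *Col4a4*.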

Additional observations from a re-analysis of the deposited data

Results flagged for a closer look

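Within each group of 4 mice, the gap between the mouse at one end and its neighbour was set against the range of the group, on log2 of CPM, with 0.1 added for single genes. Of 151 groups looked at, 12 had a gap ratio above the unrounded critical value near 0.83, and by chance about 1 in 20 groups would. Male Alport NR replicate 1 was far from the others for *Mmp7* (ratio 0.921, at 9.10 CPM) and *Timp2* (0.871, at 213 CPM). Female control NR replicate 1 was far for *Mmp7* (0.898, at 1.23 CPM) and replicate 2 of that group for *Loxl1* (0.8294, at 18.2 CPM). Female control vehicle replicate 3 was far for *Timp1* (0.858, at 0.982 CPM) and *Adamts1* (0.954, at 36.7 CPM), and male Alport vehicle replicate 2 for *Adamts1* (0.846, at 178 CPM). Outside the 10 genes, female Alport vehicle replicate 2 was far for *Col4a3* (0.863, at 79.3 CPM), male Alport vehicle replicate 2 for the sum of injured tubule markers (0.987, at 7720.2 CPM) and male Alport NR replicate 3 for the sum of endothelial markers (0.966, at 636 CPM). The sum of lymphocyte markers set apart male control vehicle replicate 3 (0.872, at 2.70 CPM) and female control NR replicate 1 (0.914, at 4.99 CPM). No member moved in opposite directions without overlap in the pairs of comparisons looked at.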

How the results depend on the processing

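In vehicle-treated Alport against control mice of either sex, the 8 members that passed the low-count filter among vehicle-treated controls kept their direction. They were called under every alternative and without any 1 mouse. The same held for *Mmp7* and *Timp1*, but these passed the filter only through the Alport mice, so their calls add no support. RLE factors and edgeR without robust estimation left every count of members called the same, and changed counts of genes called by no more than a factor of 1.5, the largest change being from 80 to 57 genes for the sex-genotype interaction with RLE factors. Other counts moved, and the cause was not tested. For Alport against control on NR in males, members called were 9 by DESeq2, 9 in 1 fit of all 32 mice and 7 with the replicate block, and genes called 1361, 4554 and 351, with 29 without the low-count filter. For the same comparison in females, 8 members were called without the filter, where *Loxl2* was lost. For NR in Alport males, genes called were 68 by DESeq2 and 77 in 1 fit. For NR in control males, 1 member was called in 1 fit and 1 with the block, 5 by DESeq2 and 6 without the filter, *Mmp14* passing in the last 2, and genes called were 1626 by DESeq2 and 413 with the block. For NR in females, genes called were 695 by DESeq2 and 240 in 1 fit among Alport mice, and 1460 by DESeq2, 20 in 1 fit and 406 with the block among controls. For male against female controls, 1 fit called 1 member and 2795 genes, the block 4 members, DESeq2 6 with *Timp3* added, and the analysis without filter 5 with *Mmp7* added; *Loxl1* was lost with the block (adjusted p 0.107) and without the filter (0.0874), both from the edgeR quasi-likelihood test with Benjamini-Hochberg adjustment. For the sex-genotype interaction DESeq2 called 3 members, *Mmp7* among them, and 253 genes, and 1 fit 5 genes. For the NR-genotype interaction DESeq2 called 1 member and 19 genes in males and 29 genes in females, 1 fit called 1 gene in males, and the analysis without filter 1 gene in females. Estimates near 0 changed sign: for NR in Alport males *Timp3* was −0.0203 with the block, and *Lox* 0.0015 by DESeq2, 0.00601 with RLE factors and 0.0185 in 1 fit; for NR in control females *Mmp14* was 0.00122 with the block, and *Loxl1* 0.00802 in 1 fit and 0.0328 with the block; for the sex-genotype interaction *Timp3* was −0.0334 in 1 fit. With 1 mouse left out, members called ranged from 0 to 5 for Alport against control on NR in males, 0 to 2 for NR in Alport males, 1 to 5 for NR in control males, 3 to 6 for male against female controls, 0 to 1 for the sex-genotype interaction and 0 to 8, with *Mmp7* and its 0 counts in controls among the 8, for the NR-genotype interaction in males, where the median with *Mmp7* counted ranged from −1.68 to −1.01. In females this median ranged from −0.86 to −0.29, that of NR in Alport females from −0.76 to −0.26, and that of NR in control females from −0.0804 to 0.17. Genes called ranged, in the same order, from 0 to 87, 0 to 374 and 111 to 1863, then 9 to 163 for NR in Alport females, 422 to 857 in control females, 23 to 101 for the sex-genotype interaction, and 0 to 784 in males and 0 to 33 in females for the NR-genotype interaction. The upper ends 5, 87, 2, 374, 8 and 784 all came without male Alport NR replicate 1, 1863 came without male control NR replicate 4, and 163 and 33 without female Alport NR replicate 1. Signs changed for *Timp3* in Alport against control males on NR (−0.243 to 0.00741); for NR in Alport males in *Mmp7* (−0.28 to 0.53), *Timp3* (−0.14 to 0.11), *Lox* (−0.70 to 0.25) and *Adamts1* (−0.38 to 0.0181); in Alport females in *Lox* (−0.55 to 0.0257) and *Loxl1* (−0.29 to 0.13); for NR in control females in *Mmp14* (−0.13 to 0.17), *Lox* (−0.0148 to 0.47), *Loxl1* (−0.17 to 0.13) and *Loxl2* (−0.0804 to 0.18); in male against female controls in *Adamts1* (−0.22 to 0.0186); and for the interactions in *Timp3* by sex (−0.0555 to 0.11) and *Loxl1* with NR in females (−0.32 to 0.13). Mice with the same replicate number in different groups were not treated as pairs in the main fits. Their residual correlations ran from −0.166 to 0.265 over 36 pairs, with 9 pairs over 0.1, and 0 comparisons had every pair over 0.1. Whether such mice shared litters was not tested. With 4 mice per group and 16621944 to 27778797 counts each, *Mmp7* at 0 to 13 counts and *Timp1* at 1 to 25 counts in male controls limit what can be said about their fold changes.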
